A study of Mus musculus with 2 samples.

Results

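The genes of the E proteins (Tcf3, Tcf4 and Tcf12) and of their Id inhibitors (Id1, Id2 and Id3) were examined for Runx1 peaks in CD4+CD8+ double-positive (DP) thymocytes. A peak was assigned to a gene if its centre lay within the gene body, as annotated in mm9 (NCBIM37), or at most 100 kb from either end of it. By this rule 7 of the 3531 Runx1 peaks belonged to 4 of the 6 genes. The chromatin came from DP thymocytes of C57BL/6 mice (a C57Bl/6 J background in the methods) aged 4 to 6 weeks, which the labels describe as sorted with an Automacs. A library made with 10 μg of an anti-Runx1 antibody and an input library made without antibody were sequenced, both after 15 cycles of PCR. The study used the Runx1 library to ask how often a lymphoid factor lies at promoters with long upstream antisense transcripts. As there was 1 library per group, no spread between replicates and no test between groups could be computed. The identity of the cells could not be checked against RNA markers in lists of peaks, and the expression of the genes was not analysed here.

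E proteins are basic helix-loop-helix (bHLH) transcription factors that bind DNA as dimers at the E-box, the hexamer CANNTG. Id proteins keep the helix-loop-helix but lack the basic part, so that a dimer of an E protein with an Id protein does not bind DNA. In the thymus, E proteins drive T-cell specification and the rearrangement of receptor genes and hold cells at developmental checkpoints, and Id proteins, Id3 above all, are induced by receptor signals and relieve this hold. Runx1 is the DNA-binding subunit of a heterodimer with Cbfb and recognises the hexamer TGTGGT.

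A peak near Id1 with the RUNX motif, the peak closest to an Id gene and the only peak at an E protein gene are given below on the plus strand of mm9. In the Id sequences, capitals mark the RUNX motifs (TGTGGT or TGCGGT, on either strand) and the E-boxes, and the motifs overlap in the Id1 sequence.
Id1, 39304 bp downstream of the TSS, chr2:152601198-152601384: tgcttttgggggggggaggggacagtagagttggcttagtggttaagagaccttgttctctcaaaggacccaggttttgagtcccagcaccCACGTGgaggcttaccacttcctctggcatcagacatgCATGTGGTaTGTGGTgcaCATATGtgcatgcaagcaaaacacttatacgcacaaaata
Id2, 3100 bp downstream of the TSS, chr12:25777764-25777950: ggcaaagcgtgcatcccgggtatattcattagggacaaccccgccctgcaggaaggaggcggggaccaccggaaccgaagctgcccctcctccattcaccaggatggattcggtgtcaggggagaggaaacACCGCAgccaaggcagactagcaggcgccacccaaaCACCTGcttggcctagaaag
In the Tcf12 sequence, which held neither motif, capitals mark a run of the dinucleotide GA.
Tcf12, 921 bp downstream of the TSS, chr9:71958612-71958798: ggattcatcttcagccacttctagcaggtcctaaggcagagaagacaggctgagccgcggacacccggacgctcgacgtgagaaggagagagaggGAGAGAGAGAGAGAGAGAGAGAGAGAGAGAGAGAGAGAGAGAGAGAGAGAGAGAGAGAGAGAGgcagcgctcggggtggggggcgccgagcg

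The authors gave each peak a score, a whole number whose meaning is not named in the files. It took 35 different values from 14 to 129 over the Runx1 list, with a median of 18, and it was used here only to rank peaks within that list. The 7 peaks had scores from 16 to 49 with a median of 21. All were 187 bp wide, and none overlapped a peak of the input list, which 35 of the 3531 Runx1 peaks did. The windows of the 6 genes together covered 1.84 Mb and held 0 of the 740 input peaks. With a floor of 3 counts, a count of 0 in this length allows up to 1.63 input peaks per Mb, and the input list held only 0.279 per Mb over the genome, so the windows were too short for input peaks to be compared.

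**Figure D1:**
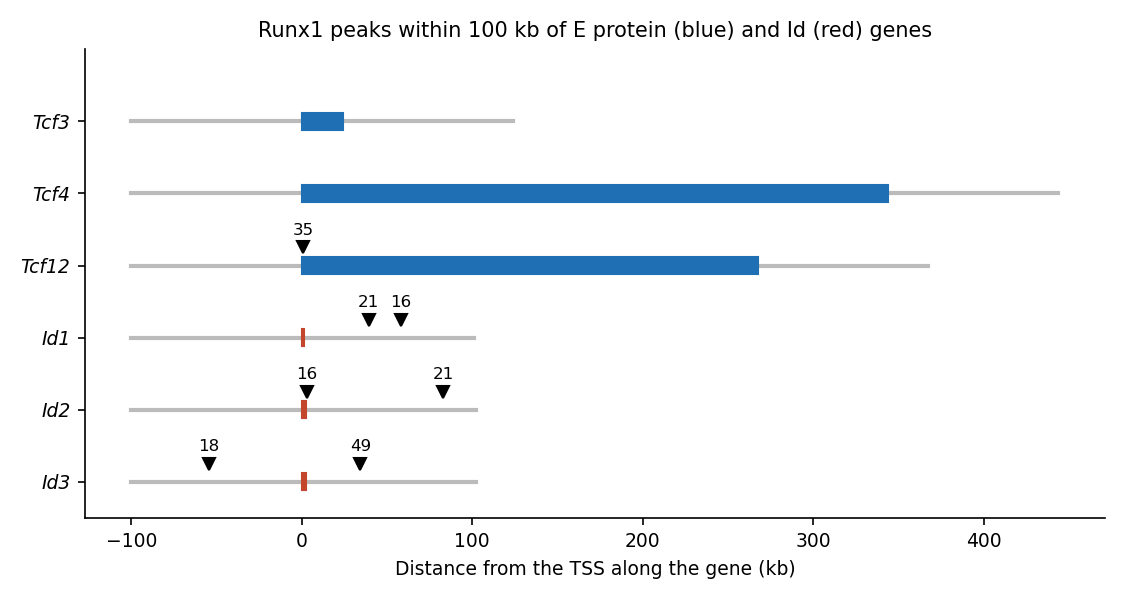
Runx1 peaks around the 6 genes. The x axis gives the distance from the TSS in kb, positive in the direction of transcription. Grey lines are the windows, coloured bars the gene bodies (blue, E proteins; red, Id genes), and triangles the peak centres with the score above them. Each Id gene has 2 peaks in its window, Tcf12 has 1 close to the TSS, and Tcf3 and Tcf4 have none.

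Among the E protein genes, Tcf12 alone had a Runx1 peak in its window. Tcf12, which encodes the E protein HEB, lies on the minus strand (chromosome 9, 71692059 to 71959626). Its single peak (71958612 to 71958798, score 35) was intronic, with its centre 921 bp into the gene. Only 267 Runx1 peaks had a higher score, and 9.29% of all Runx1 peaks had a score of 35 or more. A peak at least this near to the TSS was found for 2.74% of the 22367 protein-coding genes.

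The sequence under the Tcf12 peak contained neither TGTGGT nor TGCGGT and no E-box. It contained 63 bp of uninterrupted GA repeat, from 2 to 64 bp to the right of the peak centre (71958707 to 71958769). A perfect tandem run of at least 30 bp with a unit of up to 3 bases was present in 1.56% of all Runx1 peaks, and 6 of the 3531 had a run of 63 bp or more. Of the 156 overlapping stretches of 32 bases in this peak, 53 occurred more than once in the genome. The most frequent of them occurred 766823 times, and the stretch at the centre occurred once. The 55 peaks with such a run and the other 3476 had a median score of 18, on a scale with many ties. A score of 35 or more was given to 3 of the 55 (5.45%) and to 325 of the others (9.35%), and TGTGGT was found in 25.5% of each group. The part of the repeat in the call of this peak was not tested.

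Tcf3, which encodes the E2A proteins (chromosome 10, 79872259 to 79896392, minus strand), had no peak within 100 kb, although 11 other protein-coding genes share its window. The nearest peak (79712063 to 79712249, score 21) lay 184236 bp downstream of the TSS, in an exon of Ndufs7 outside the coding part, and the next on the other side (80085116 to 80085302, score 37) lay between genes, 188817 bp upstream. Each of these contained 2 copies of TGTGGT. The distance of Tcf3 was ordinary, as 50.4% of protein-coding genes had a peak at least as near.

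Tcf4, which encodes the E protein known as ITF2, is the longest of the genes, with a body of 344 kb (chromosome 18, 69503800 to 69847621, plus strand), and no other protein-coding gene overlaps its window. It was the most remote from any peak. The nearest (68941323 to 68941509, score 21) lay 562 kb upstream of the TSS, and on the other side the nearest (70484329 to 70484515, score 18) lay 637 kb beyond the end of the gene. Of all protein-coding genes, 80.0% had a peak at least as near to the TSS. The 7 TSSs annotated for coding transcripts of Tcf4 gave the same nearest distance, and the 9 of Tcf3 shortened it to 172449 bp.

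**Figure D2:**
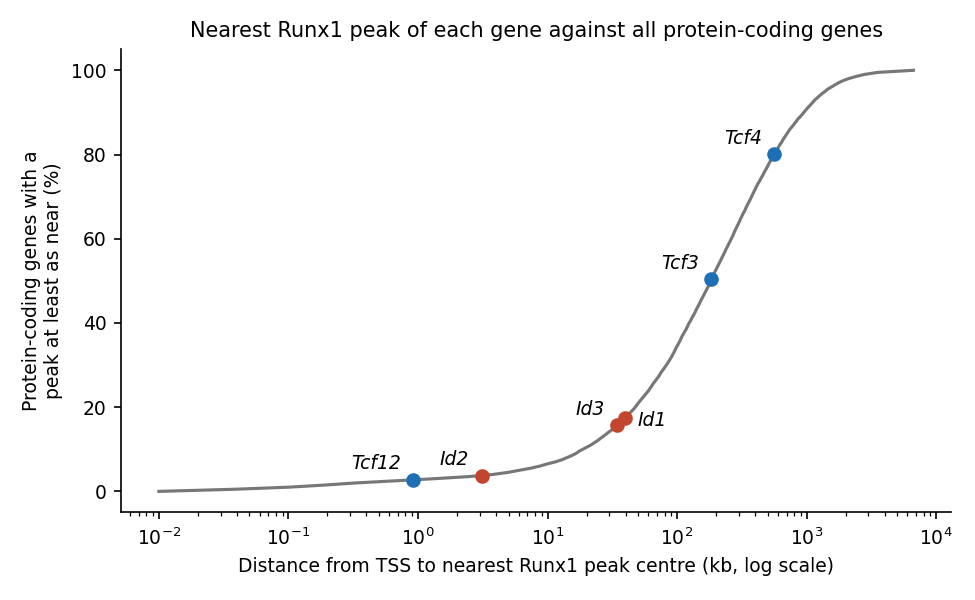
Distance from the TSS to the nearest Runx1 peak centre (x axis, kb, log scale) against the share of protein-coding genes with a peak at least as near (y axis, %). The grey line is the distribution over 22367 genes, and points mark the E protein (blue) and Id (red) genes. Tcf12 and Id2 lie at 2.74% and 3.76%, Id3 and Id1 at 15.8% and 17.4%, Tcf3 at 50.4% and Tcf4 at 80.0%.

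The 3 Id genes each had 2 Runx1 peaks in their windows of about 202 kb. The genes are short, with bodies of 1160 bp for Id1, 2292 bp for Id2 and 2259 bp for Id3, and none of the 6 peaks lay within the body. At least 1 peak was found in the windows of 34.6% of protein-coding genes with a body under 10 kb, and at least 2 peaks in 11.7% of them. These windows overlap each other, so neighbouring genes share peaks.

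Id3 had the highest score among the 7 peaks. The gene lies on the plus strand (chromosome 4, 135699412 to 135701670), and the peak scoring 49 (135733653 to 135733839) was found 34334 bp downstream of its TSS and within an intron of E2f2, which encodes a cell-cycle transcription factor of the E2F family. Only 101 Runx1 peaks scored higher, and 3.34% had a score of 49 or more. The TSS of E2f2 was nearer to this peak than that of Id3, at 5437 bp, or at 2975 bp if each coding transcript was counted. The other Id3 peak (135645066 to 135645252, score 18) lay between genes, 54253 bp upstream, and the nearest TSS was that of Rpl11, a ribosomal protein gene, at 35816 bp.

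Id2 lies on the minus strand (chromosome 12, 25778666 to 25780957), and it was the only Id gene with a peak within 5 kb of its TSS. This peak (25777764 to 25777950, score 16) lay 3100 bp downstream of the TSS and 809 bp beyond the end of the gene, and the TSS of Id2 was the nearest TSS of a protein-coding gene. A score of 16 was the second-lowest value in the list and was shared by 1508 peaks. The other peak (25698077 to 25698263, score 21) lay 82787 bp downstream, in a coding exon of Kidins220, which encodes a membrane scaffold protein, and it became the nearest peak of Id2 if only scores above the median were kept. The pair stood apart from other Runx1 peaks. The next peak centre lay 2.07 Mb away on the upstream side and 4.41 Mb away on the downstream side, while the median gap between successive Runx1 peaks was 307 kb. Gaps of at least these sizes made up 8.58% and 1.97% of the 3510 gaps, respectively.

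Id1 lies on the plus strand (chromosome 2, 152561987 to 152563146). Both of its peaks lay downstream in introns of Bcl2l1, the gene of the survival factor Bcl-xL, which is transcribed from the opposite strand. The first (152601198 to 152601384, score 21) was 39304 bp from the TSS of Id1, and Cox4i2, which encodes a subunit of cytochrome c oxidase, had the nearest TSS at 21382 bp. The second (152620178 to 152620364, score 16) was 58284 bp from the TSS of Id1, and the nearest TSS was that of Bcl2l1 itself, at 37193 bp. The first peak lay in the windows of 6 protein-coding genes and the second in those of 5.

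Of the 7 peaks, 2 thus had a member of the family as the nearest protein-coding TSS, namely those of Tcf12 and the proximal peak of Id2. The peaks carry no information on the gene they act on, and the windows also hold other genes, from 0 for Tcf4 to 11 for Tcf3.

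**Figure D3:**
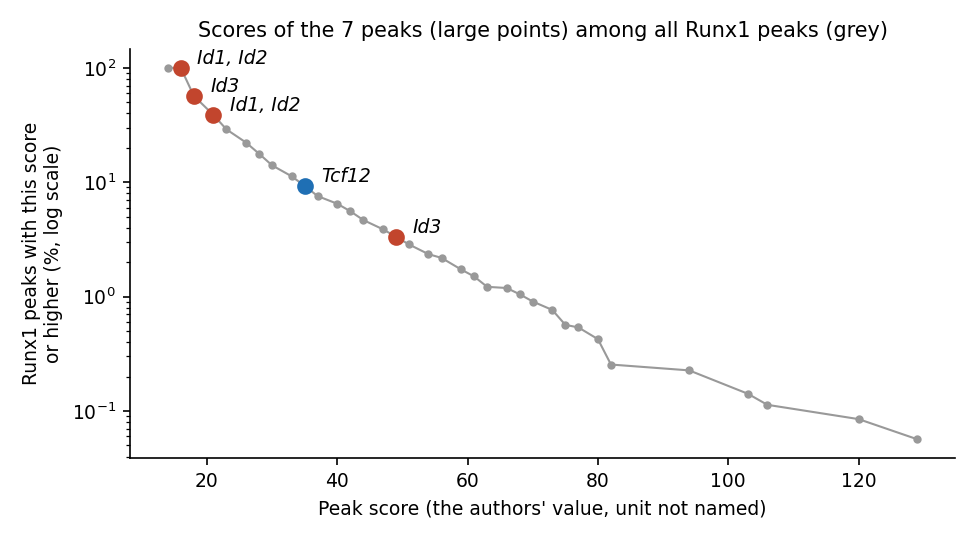
Score of a peak (x axis, the authors' value) against the share of all Runx1 peaks with this score or higher (y axis, %, log scale). Grey points are the 35 values in the list, and large points the values of the 7 peaks (blue, Tcf12; red, Id genes). The Id3 peak at 49 and the Tcf12 peak at 35 stand within the upper 3.34% and 9.29%, and the others have scores of 16, 18 or 21.

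With at least 1 peak in 4 of the 6 windows, the family was set beside all protein-coding genes, of which 38.5% had a peak in a window drawn by the same rule. The share was 41.4% for gene bodies of 10 to 100 kb, the class of Tcf3, and 39.4% for those over 100 kb, the class of Tcf4 and Tcf12. Within 5 kb of the TSS, the region that the study used for promoters, 2 of the 6 genes had a peak, Tcf12 and Id2, and 4.54% of all protein-coding genes had one. The count was 1 within 1 kb of the TSS, beside 2.8% of all protein-coding genes. It was also 1 within 5 kb with scores above the median, beside 1.73%. With 1 library and 6 genes these counts are a description.

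The windows held 3.80 Runx1 peaks per Mb (exact Poisson 95% interval 1.53 to 7.83), as compared with 1.33 per Mb over the genome. The density was 0.809 per Mb in the windows of the E protein genes (0.0205 to 4.51, 1 peak in 1.24 Mb) and 9.91 per Mb in those of the Id genes (3.64 to 21.6, 6 peaks in 0.606 Mb). The intervals of both groups overlap and cover counting error only, and the difference between them was not tested. Windows of all protein-coding genes with a body under 10 kb, the class of the Id genes, held 2.55 peaks per Mb, and those over 100 kb held 1.32.

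**Figure D4:**
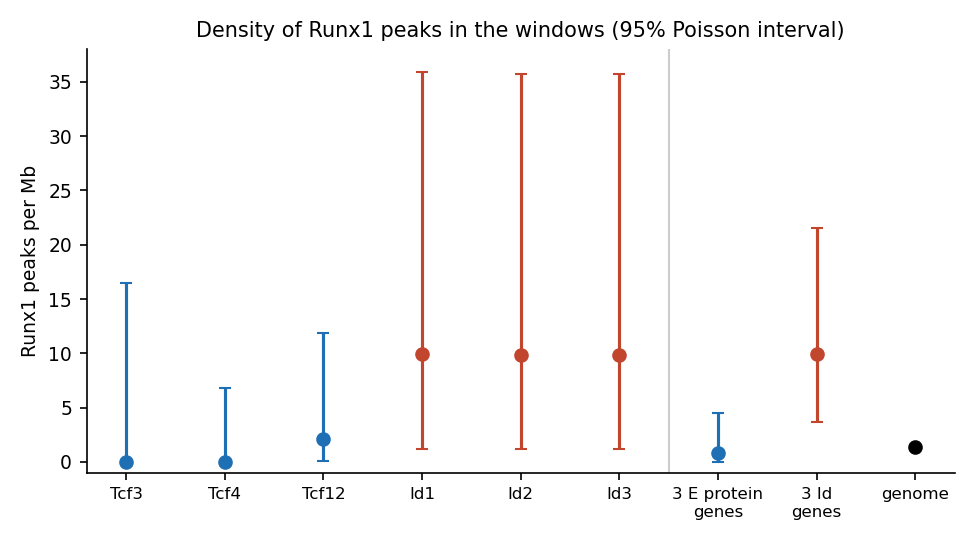
Runx1 peaks per Mb of window (y axis) for each gene, for the 3 E protein genes and the 3 Id genes together, and for the genome. Points are the densities and bars the exact Poisson 95% intervals, which cover counting error only (blue, E proteins; red, Id genes). The Id genes lie near 9.9 peaks per Mb and the E protein genes between 0 and 2.14, with wide intervals that overlap.

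The RUNX motif TGTGGT, searched on both strands over the whole peak, was found in 2 of the 7 peaks, and in 25.5% of all Runx1 peaks. These were the downstream Id3 peak and the Id1 peak at 39304 bp, shown above. In the Id1 peak, the copies at 152601329 to 152601334 and 152601336 to 152601341 lay side by side, with a single base between them.

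If TGCGGT was also counted, both Id2 peaks held a copy on the minus strand, at 25777895 to 25777900 in the proximal peak and at 25698169 to 25698174 in the distal one. This raised the count to 4 of the 7 peaks, and the share over all Runx1 peaks was 32.5%. The distal copy was 1.5 bp from the peak centre. Each of the 3 Id genes thus had a peak with at least 1 of these hexamers, and the Tcf12 peak had none.

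E-boxes, written CANNTG and therefore frequent, were found in 6 of the 7 peaks, all but that of Tcf12, and in 71.6% of all Runx1 peaks. CAGCTG or CAGGTG, the forms preferred by E proteins, were found on either strand in 4 of the 7 and in 39.8% of all. In the Id1 peak shown above, CATGTG at 152601327 to 152601332 overlapped the first TGTGGT. A match is a description of the sequence and does not show that a factor was bound there.

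**Figure D5:**
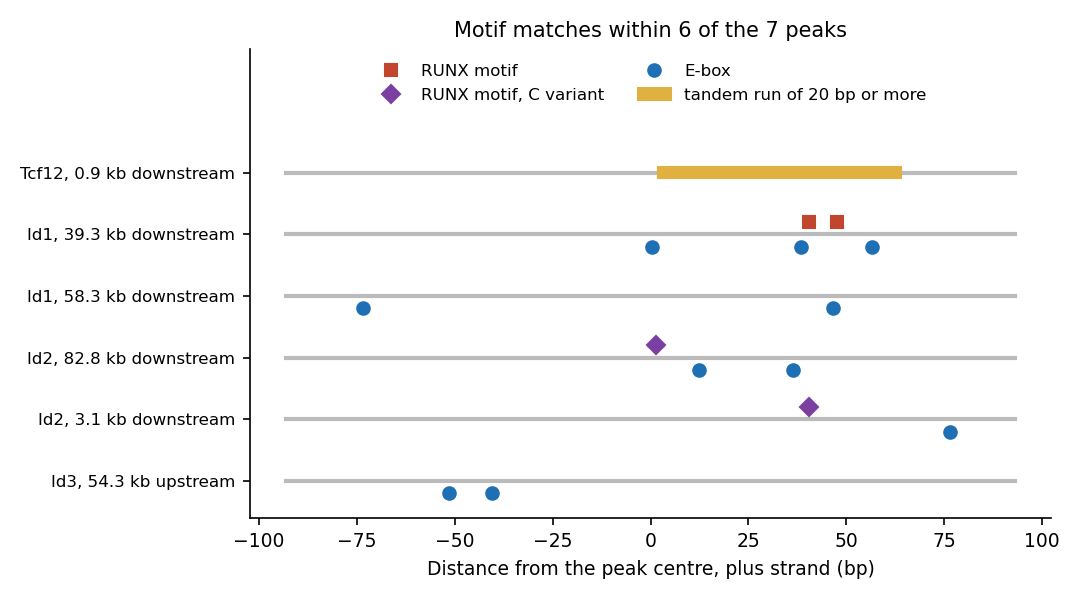
Positions of motif matches in 6 of the 7 peaks (rows, named by gene and distance from its TSS) by distance from the peak centre in bp on the plus strand (x axis). Red squares are TGTGGT, purple diamonds TGCGGT and blue circles CANNTG on either strand, and yellow bars tandem runs of at least 20 bp. The Tcf12 peak has a run of 63 bp and no motif, while 1 Id1 peak and both Id2 peaks have a RUNX hexamer.

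Apart from that of Tcf12, the only peak with 32-base stretches found more than once in the genome was the downstream Id3 peak, with 4 of 156. Of all Runx1 peaks, 29.7% had at least 1 such stretch. Only exact copies were counted, so a peak without such a stretch may still lie in a diverged repeat. The GC content of the 7 peaks ranged from 46.5 to 62.0% with a median of 59.4%, beside a median of 54.0% over all Runx1 peaks. In the promoters themselves, taken from 250 bp before to 50 bp after the TSS, TGTGGT was found at 0 of the 6 genes and in 15.3% of all protein-coding promoters. The promoters of Tcf12 and Id2 contained CAGCTG or CAGGTG. The share of all promoters with either hexamer was not computed, so whether this is common cannot be said.

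Other genes of the pathway were examined in the same way. Of 19 genes, 14 had a Runx1 peak within 100 kb, beside 38.5% of all protein-coding genes that had one. They made 30 pairs of gene and peak from 27 different peaks. Among the partners of E proteins and members of their complexes, 4 of 8 had a peak, a share near that background, and Id4, the remaining Id gene, was not among them, with its nearest peak at 514 kb. Among genes known as targets of E proteins in thymocytes the count was 7 of 8. Of these 7, Rag1 and Rag2 shared the same 3 peaks and were thus not counted independently. Among the Egr genes, which induce Id3 after receptor signals, the count was 3 of 3. A peak within 5 kb of the TSS was found at 4 of the 19 genes and at 4.54% of all protein-coding genes. With scores above the median, 9 of the 19 genes in place of 14 had a peak within 100 kb, beside 17.7% of all protein-coding genes.

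At Rag1, which encodes a subunit of the recombinase of antigen receptor genes, a peak with a score of 40 and 2 copies of TGTGGT lay 108 bp upstream of the TSS (chromosome 2, 101489673 to 101489859). Cd4, the gene of the co-receptor, had 2 intronic peaks, at 2019 bp (score 16) and 2872 bp (score 23) downstream of the TSS. The nearer one held 3 copies of TGTGGT and the other none. At Gfi1, which encodes a transcriptional repressor, the peak (score 21) was found 1825 bp past the start of the annotated gene. At Egr1, a signal-induced zinc finger gene, the peak (score 23) was found 4847 bp upstream of the TSS. Neither this peak nor that of Gfi1 contained TGTGGT.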

How the data were processed

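Chromatin of DP thymocytes was analysed by ChIP-seq on the AB SOLiD platform, in 1 Runx1 and 1 input library. The processed file that the authors deposited for either library, the only data used here, gives the positions of called peaks and a score without a named unit. The submitters' processing notes name HOMER and mm9, and the methods of the study describe HOMER peak calling at default settings. The aligner of these reads was not given in the sources used here, the meaning of the score is unknown, and the lists hold no read counts, so that the depth is unknown. The labels and the methods give different catalogue numbers for the Runx1 antibody.

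Coordinates were made 1-based and set against the NCBIM37 genome and its GENCODE annotation (22367 protein-coding genes on the assembled chromosomes). The TSS was the 5' end of the annotated gene. Gfi1 and Ptcra, which this annotation does not class as protein-coding, were kept in the pathway list. Peaks were counted by their centre, intervals are exact Poisson (the limit for input peaks at a count of 0 is 3 counts instead), and hexamers were searched on both strands. Shares over all protein-coding genes or all Runx1 peaks served as background. No test between groups was made. Each stretch of 32 bases of each peak was counted on both strands of the genome. The counting of windows and motifs was tested on simulated data. The members, the pathway list and the windows were chosen with earlier results of these data known. Sequences are printed for 3 of the 7 peaks, and the sequence and motif positions of the downstream Id3 peak are not reported here. The text names all members and their peaks, and those pathway genes with a peak within 5 kb of the TSS. Id4 was named in addition, after its value was seen, and Rag2 because it shares its peaks with Rag1. Alternatives were the window, the overlap, the score, input peaks, the gene model, the TSS and the motif; those on tandem runs and repeated stretches were added after the data had been seen. Scripts ran under Python 3.11.15 with pysam 0.24.0, pandas 2.3.3, scipy 1.17.1, numpy 2.4.6 and matplotlib 3.10.9.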

Additional observations from a re-analysis of the deposited data

How the results depend on the processing

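Of the 44 values recomputed for counts, densities, motifs and the median score under the alternatives planned, 37 stayed within 1.5 times the value given, or within its interval for the density, and 7 moved. The 7 peaks became 4 with windows of 50 kb and also 4 with scores above the median, while 4 of the 6 genes had a peak in both cases, beside 25.8% and 17.7% of all protein-coding genes, respectively. Of the pathway genes, 9 in place of 14 had a peak within 100 kb with scores above the median, where the share of all protein-coding genes was again 17.7%. Within 1 kb of the TSS, 1 of the 6 genes and 1 of the pathway genes had a peak (2.8% of all protein-coding genes), and with scores above the median 1 of the 6 genes had a peak within 5 kb (1.73%). Counting TGCGGT as well raised the peaks with a RUNX motif from 2 to 4. Without peaks with a tandem run of at least 30 bp, and likewise without peaks with a 32-base stretch found more than once, Tcf12 had no peak and 1 of the 6 genes, Id2, had a peak within 5 kb of its TSS (4.45% and 4.12% of all protein-coding genes); both settings were chosen after seeing the data. The smaller window, fewer peaks or wider motif of each alternative set these counts by construction. Some of the 37 values could not move either. No peak of the 6 genes overlapped an input peak, so leaving out such peaks changed none of their counts. A smaller window could not add input peaks. Windows of 200 kb gave 10 peaks at 5 genes, Tcf3 included, and 55.4% of all protein-coding genes had a peak at that width. With 1 library per group no replicate could be left out. No paired analysis was possible because a single library stood for each group. The absence of a peak near Tcf3 and Tcf4 cannot be told apart from signal below the calling threshold, since the depth is unknown.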
